A study of Mus musculus with 16 samples.

Results

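The genes of the mitochondrial genome were taken as the rows of a table of 35275 genes whose name begins with mt-. The rule found 13 rows, all of them protein coding. They encode 7 subunits of complex I (mt-Nd1, mt-Nd2, mt-Nd3, mt-Nd4, mt-Nd4l, mt-Nd5 and mt-Nd6), 1 of complex III (mt-Cytb), 3 of complex IV (mt-Co1, mt-Co2 and mt-Co3) and 2 of complex V (mt-Atp6 and mt-Atp8). The 2 ribosomal and 22 transfer RNA genes of this genome were not analysed here. All 13 genes passed the filter used for testing, a mean of at least 0.5 FPKM (fragments scaled to gene length and to library depth) over the 16 libraries.

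The cells were C2C12, an established mouse myoblast line that forms myotubes when serum is lowered, and the labels describe them as PAX7 negative. The wild-type control cells were 2 populations, called control lines 1 and 2 here. The triple-knockout (tKO) cells lacked 3 microRNA genes that are active in muscle, miR-206 and both copies of miR-1a (miR-1a-1, miR-1a-2), whose levels were not analysed here, and were 2 clones, so that each knockout line stands for 1 clone. Each line was sampled in 2 cultures as growing myoblasts (GM, 20% fetal bovine serum, about 80% confluent) and as myotubes after 3 days of differentiation (DM3, 2% HS), numbered 1 and 2. This gave 4 groups of 4 libraries, control and tKO at each stage. Nothing in the labels says how separate the numbered cultures were, so p-values measure the spread between these libraries, which may in part be technical. The study's title asks about the role of the miR-206 family in mitochondrial and muscle function and in myogenesis.

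The mitochondrial genome is a small circle that is transcribed from both strands into long precursors. These are cut, mostly at transfer RNAs, into messages, most of which receive short poly(A) tails. The levels of messages from 1 precursor thus depend on processing and stability as well as on transcription. Every protein it encodes is a core subunit of the respiratory chain or of ATP synthase, and nuclear genes supply the other subunits and all the factors that copy, transcribe, process and translate it. Myoblasts that become myotubes are known to build up oxidative capacity.

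Depth was 22642563 to 56585952 fragments per library, and the 12 muscle markers summed to 45.1 to 110.9 FPKM in GM and 584.0 to 1729 FPKM in DM3. Of the markers of other cell types, Pax7 reached 0.0237 FPKM at most, and the summed level over 5 endothelial genes reached 0.495, over 4 epithelial genes 4.55, over 5 macrophage genes 9.46 and over 5 adipocyte genes 11.6 FPKM. The libraries are bulk RNA, in which fewer cells of a type and less RNA per cell cannot be told apart. The highest adipocyte and epithelial sums were both in tKO GM clone 1, culture 2, where the 13 genes took 2.06% of fragments, within the 1.98% to 2.48% of that group.

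The 13 genes lie on MT, the mitochondrial chromosome of build GRCm38, in the order mt-Nd1 (ENSMUSG00000064341, bases 2751 to 3707), mt-Nd2 (3914 to 4951), mt-Co1 (ENSMUSG00000064351, 5328 to 6872), mt-Co2 (7013 to 7696), mt-Atp8 (7766 to 7969), mt-Atp6 (7927 to 8607), mt-Co3 (8607 to 9390), mt-Nd3 (9459 to 9806), mt-Nd4l (9877 to 10173), mt-Nd4 (10167 to 11544), mt-Nd5 (11742 to 13565), mt-Nd6 (13552 to 14070) and mt-Cytb (ENSMUSG00000064370, 14145 to 15288). Each is a single exon, and mt-Nd6 alone is on the minus strand. Some neighbours overlap, and since the use of strand in counting is not stated, fragments in an overlap cannot be assigned with certainty. For the same reason RNA of the plus strand that runs across mt-Nd6 could be counted in that gene. The end of mt-Atp8 and the end of mt-Nd4l are shown because these overlaps touch genes with few fragments. Capitals mark the 43 bases that mt-Atp8 shares with the start of mt-Atp6 and the 7 that mt-Nd4l shares with mt-Nd4, in GENCODE transcripts of GRCm38.
mt-Atp8 135 to 204: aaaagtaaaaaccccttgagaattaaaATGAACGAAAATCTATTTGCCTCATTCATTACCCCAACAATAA
mt-Nd4l 228 to 297: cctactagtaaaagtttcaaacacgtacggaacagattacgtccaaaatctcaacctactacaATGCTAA

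Copies of mitochondrial sequence in the nuclear genome bear on which genes could be counted. On chromosome 1 a block of 7 annotated pseudogenes, all on the minus strand between 24611535 and 24616197, copies the genome from the last part of mt-Co1 to mt-Nd4. Over their aligned length the copies of mt-Co2 (Gm28661, 681 bases), mt-Atp6 (Gm10925, 678), mt-Co3 (Gm28437, 783), mt-Nd4l (Gm10222, 294) and mt-Nd4 (Gm28439, 876) had 0 mismatches. The copy of mt-Nd3 (Gm28438) had 1 in 345 bases, T3C, counted from base 1 of mt-Nd3 with the mitochondrial base first. The copy of the last 492 bases of mt-Co1 (Gm29216) had 6, all near its own start: T1056A, C1057T, A1059G, A1060G, C1062A and A1066T in positions of mt-Co1. The first 50 bases of those 2 copies are shown beside the mitochondrial genes, since they hold every difference found between these pairs, in capitals.
mt-Co1 1054 to 1103: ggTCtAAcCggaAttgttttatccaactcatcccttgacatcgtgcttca
Gm29216 1 to 50: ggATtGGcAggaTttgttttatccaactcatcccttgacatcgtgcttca
mt-Nd3 1 to 50: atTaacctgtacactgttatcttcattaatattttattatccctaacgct
Gm28438 1 to 50: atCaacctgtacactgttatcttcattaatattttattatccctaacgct

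A fragment that lies wholly in such shared sequence cannot be placed by its letters. Of all windows of 100 bases in each gene, the share also found in a nuclear gene of the table was 97.6% in mt-Nd3, 98.5% in mt-Nd4l, 99.5% in mt-Co2 and in mt-Atp6, and 99.9% in mt-Co3. It was 60.8% in mt-Nd4, 30.8% in mt-Co1 and 3.19% in mt-Nd2, and 0 windows were shared in mt-Nd1, mt-Nd5, mt-Nd6, mt-Cytb and mt-Atp8. How the authors treated fragments with several matches is not given in the sources used here.

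Levels per length were low in the genes with high shares and in mt-Atp8, as the plot of level against shared sequence shows. Over the 16 libraries the mean was 6791 FPKM for mt-Co1, 3217 for mt-Nd1, 2269 for mt-Cytb, 1277 for mt-Nd2, 1265 for mt-Nd5, 1020 for mt-Nd6 and 809.7 for mt-Nd4. The 5 genes shared almost whole with nuclear copies stood far lower, at 87.1 FPKM for mt-Co2, 43.6 for mt-Atp6, 41.7 for mt-Co3, 11.97 for mt-Nd4l and 8.09 for mt-Nd3. The lowest gene, mt-Atp8, averaged 1.91 FPKM from 4 to 26 fragments per library and has no annotated copy in the table. It lies between mt-Co2 and mt-Atp6, whose copies flank a gap in the annotated genes of the chromosome 1 block, between 24614651 and 24614885. Only annotated genes were searched, so a copy of mt-Atp8 in that gap would not be found, and its level is uncertain too.

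**Figure D1:**
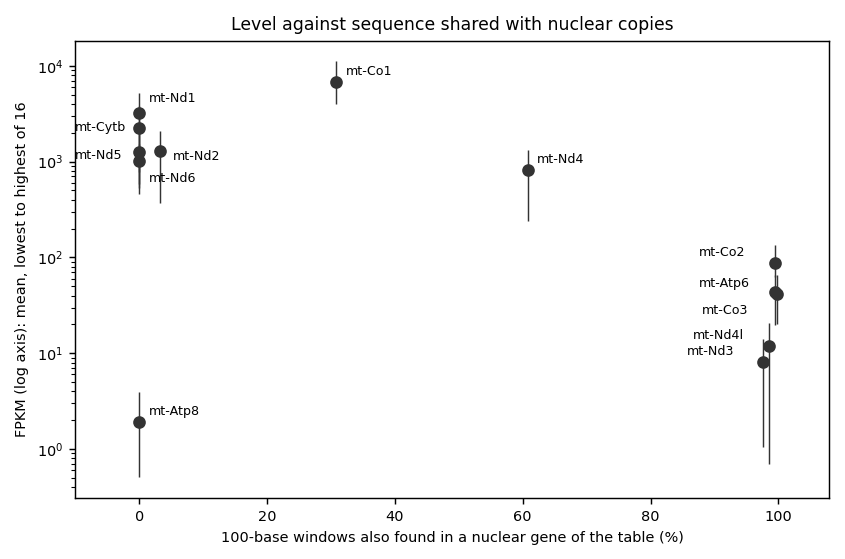
Mean FPKM of each of the 13 genes over 16 libraries (vertical log axis, with a line from the lowest to the highest library) against the percent of its 100-base windows that also occur in a nuclear gene of the table. The 5 genes above 97% shared sit between 8.09 and 87.1 FPKM, the 7 genes at 60.8% or less other than mt-Atp8 sit between 809.7 and 6791 FPKM, and mt-Atp8 sits at 1.91 FPKM with 0 shared windows.

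The copies of the 5 genes shared almost whole were all listed above the genes themselves. The mean of Gm28661 was 1.18, 1.19, 1.25 and 1.27 times that of mt-Co2 in the control and tKO groups of GM and then of DM3. Gm10925 stood at 2.08 to 2.21 times mt-Atp6, Gm28437 at 1.19 to 1.24 times mt-Co3, Gm10222 at 1.17 to 1.43 times mt-Nd4l and Gm28438 at 6.92 to 11.2 times mt-Nd3. The copies of the genes with much unshared sequence took little by comparison: Gm28439 was at 0.0163 to 0.0187 times mt-Nd4 and Gm29216 at 0.0103 to 0.0122 times mt-Co1. Copies on chromosome 2 that are less alike were lower still against mt-Co1 and mt-Nd2 (Gm13340 reached 24.2 FPKM and Gm13339 4.42). Gm13341, a copy of mt-Co2 on that chromosome, reached 31.4 FPKM. Its 74.3% identity is from an ungapped alignment, in which an insertion or deletion lowers the figure, so the true likeness may be higher. The copies Gm11512, Gm11407 and Gm4076 on other chromosomes had 0 to 2 fragments in every library. The levels of mt-Co2, mt-Atp6, mt-Co3, mt-Nd3 and mt-Nd4l are therefore uncertain, and each result on them is given with a fit in which fragments of gene and chromosome 1 copy were summed, wherever that sum changed a call.

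In growing myoblasts the abundant genes stood in a narrow range whatever the genotype. mt-Nd1, a membrane subunit of complex I, had 3969, 4186, 4310 and 5247 FPKM in control GM and 3769, 4243, 4660 and 4864 in tKO GM (line 1 cultures 1 and 2, then line 2 cultures 1 and 2, an order kept throughout). mt-Cytb, the cytochrome b of complex III, had 2721, 2739, 3405 and 3339 FPKM in control GM and 3257, 3017, 3789 and 3214 in tKO GM. mt-Co1, the catalytic subunit of complex IV, had 4065, 4003, 4705 and 6077 FPKM in control GM and 4283, 4619, 5618 and 5051 in tKO GM. In each of these genes the groups overlapped, and the panel of levels by library shows the same for the other 10, where 5.38% of all genes tested were higher and 8.62% lower without overlap. The coefficient of variation within a GM group was 20.4% at most among the 7 abundant genes, and between 52.3% and 80.2% for mt-Atp8.

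**Figure D2:**
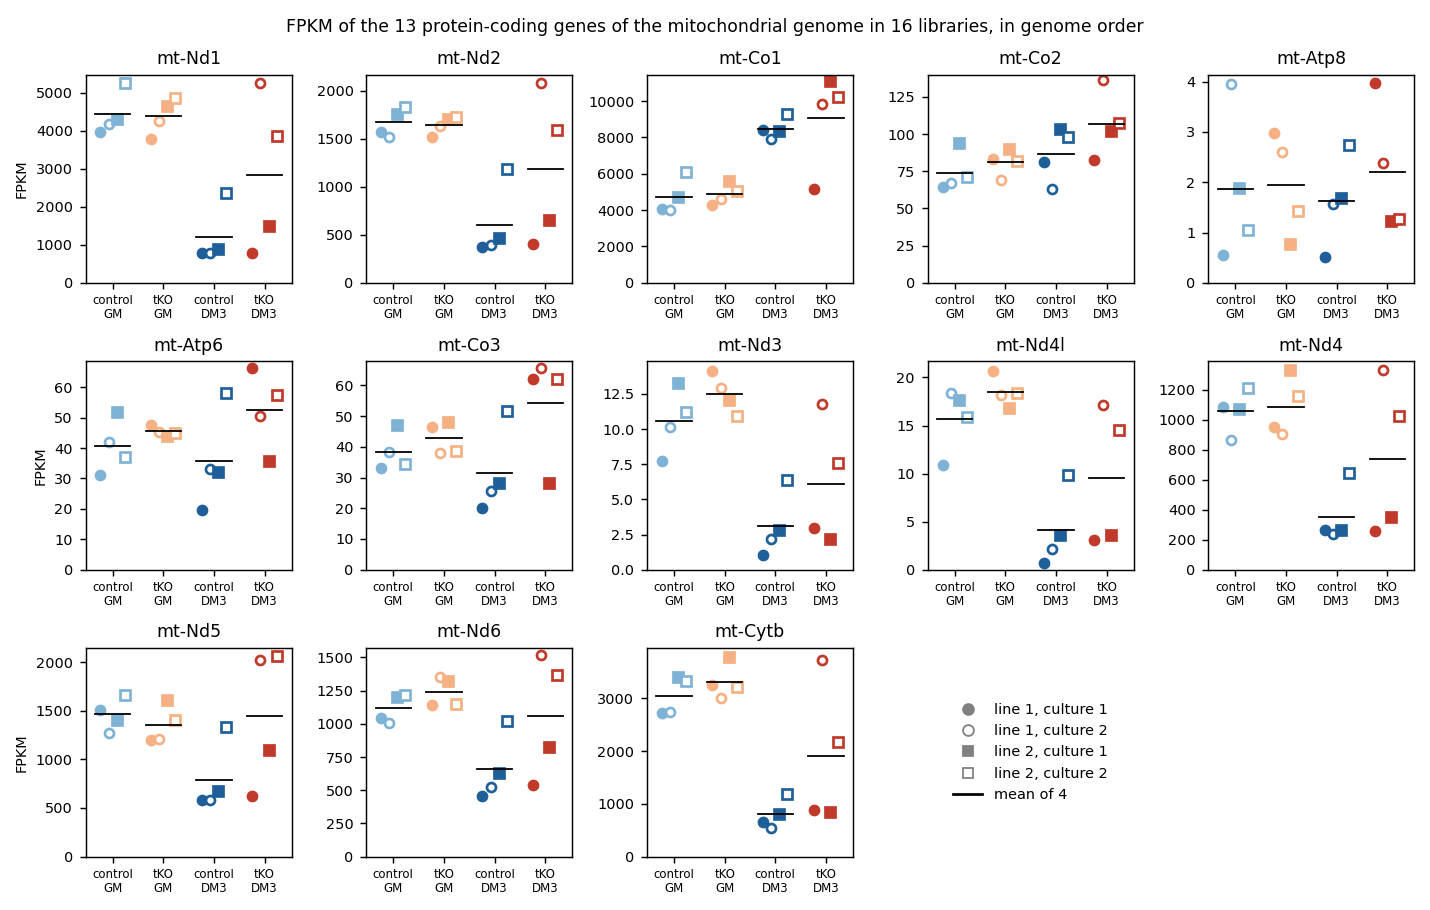
FPKM of the 13 genes (linear axes from 0, a scale per gene) in the 16 libraries by group. Filled symbols are culture 1 and open symbols culture 2, circles are line or clone 1 and squares line or clone 2, and the black bar is the mean of 4. The DM3 points of the mt-Nd genes and mt-Cytb spread widely, with culture 2 of the tKO clones above the other DM3 libraries, while mt-Co1 in DM3 lies above its GM points in all but 1 library.

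No gene of the mitochondrial genome passed the test between tKO and control myoblasts in GM (limma on log2(FPKM + 1), Benjamini-Hochberg adjusted p under 0.05), where 2.06% of the 11832 genes tested passed in either direction. The 13 differences lay between -0.11 (mt-Nd5) and 0.24 (mt-Nd4l) on the log2 scale, with a median of 0.12 against -0.01 over all genes tested. At an unadjusted p under 0.05 there were 0 of 13, where 17.5% of all genes were, and voom, a test on the fragment numbers, also called 0. The interval that the standard error allows is wide for some genes: mt-Nd1 differed by -0.01 (SE 0.46), since the fit shares its spread with the DM3 libraries.

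Differentiation of control cells lowered most of the genome's messages and raised 1. Of the 13 genes, 8 fell (all 7 mt-Nd genes and mt-Cytb), where 38.3% of all genes tested fell, and 1 rose (mt-Co1), where 23.2% rose (limma, adjusted p under 0.05). The other 4 (mt-Co2, mt-Co3, mt-Atp6 and mt-Atp8) did not pass. The median change over the 13 genes was -0.97 on the log2 scale against -0.15 over all genes tested, and with median-of-ratios scaling, which moved the median of all genes to 0.01, the same 8 genes were lower and mt-Co2 was higher beside mt-Co1 (log2 change 0.42, limma adjusted p = 0.0291).

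Among the complex I genes, mt-Nd1 fell from 4428 ± 564 FPKM in control GM to 1206 ± 770 in control DM3 (SD, n = 4). Its DM3 libraries had 792.3, 772.1, 902.1 and 2359 FPKM, so that 3 lay close together and control line 2, culture 2 stood apart, though still below all 4 GM libraries. The log2 change was -2.04 (SE 0.46; limma adjusted p = 0.00119). The mean in DM3 was 0.192 times that in GM in control line 1 and 0.341 times in line 2. mt-Nd2, another membrane subunit, fell from 1674 ± 147 to 601.3 ± 390 FPKM (SD, n = 4; log2 change -1.65), with 370.4, 389.5, 462.6 and 1183 FPKM in DM3 and the same library on top. mt-Nd4, a proton-channel subunit, fell from 1059 ± 143 to 353.5 ± 192 FPKM (SD, n = 4; log2 change -1.70), with 267.5, 238.2, 266.8 and 641.2 in DM3.

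The remaining complex I genes fell too. mt-Nd5, the proton-channel subunit at the far end of the membrane arm, had 582.9, 578.6, 678.4 and 1327 FPKM in control DM3 against 1505, 1273, 1402 and 1664 in control GM, a log2 change of -0.97 (limma adjusted p = 0.0166). mt-Nd6, the subunit encoded on the other strand, had 459.7, 526.2, 626.7 and 1020 FPKM in DM3 against 1047, 1008, 1201 and 1216 in GM, a log2 change of -0.83 (limma adjusted p = 0.0165). For both, control line 2, culture 2 reached into the GM range, and the other 3 DM3 libraries were below every GM library. Without control line 1, culture 1 in DM3 neither mt-Nd5 nor mt-Nd6 passed (limma adjusted p = 0.0508 and 0.0591), and without control line 1, culture 2 mt-Nd5 did not (limma adjusted p = 0.053). The low genes mt-Nd3 and mt-Nd4l fell by 1.64 and 2.02 on the log2(FPKM + 1) scale, which understates their change; mt-Nd4l had 0.705, 2.20, 3.60 and 9.84 FPKM in control DM3 against 10.9, 18.4, 17.7 and 15.9 in GM.

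mt-Cytb of complex III changed like mt-Nd1. It had 662.5, 532.8, 805.8 and 1196 FPKM in control DM3, all below the 4 GM libraries, and fell from 3051 ± 372 to 799.2 ± 287 (SD, n = 4), a log2 change of -1.99 (SE 0.37; limma adjusted p = 0.000201). The mean in DM3 was 0.219 times that in GM in line 1 and 0.297 times in line 2.

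mt-Co1 went the other way. It had 8419, 7929, 8323 and 9272 FPKM in control DM3, above all 4 GM libraries, and rose from 4712 ± 963 to 8486 ± 565 (SD, n = 4), a log2 change of 0.87 (SE 0.21; limma adjusted p = 0.00183). The mean in DM3 was 2.03 times that in GM in line 1 and 1.63 times in line 2. mt-Co2 and mt-Co3, the other core subunits of complex IV, changed by 0.21 and -0.35 (limma adjusted p = 0.302 and 0.266). The ATP synthase genes mt-Atp6 and mt-Atp8 changed by -0.25 and -0.06 (limma adjusted p = 0.396 and 0.904). All 4 have low levels and all but mt-Atp8 are shared with annotated nuclear copies.

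Over the 13 genes the control groups did not overlap for 7, with 6 lower in every DM3 library (mt-Nd1, mt-Nd2, mt-Nd3, mt-Nd4, mt-Nd4l and mt-Cytb) and 1 higher (mt-Co1), where 39.8% and 24.5% of all genes tested did so. The calls leaned on control line 1: without that line's 4 libraries only mt-Cytb passed (log2 change -1.78, limma adjusted p = 0.026), while without control line 2 the same 8 genes were lower and mt-Co1 higher. Over 34 alternatives the limma adjusted p of mt-Cytb ran from 1.59e-05 to 0.026, and mt-Nd1 and mt-Co1 passed in 33 each. Some of these left out only tKO libraries, which cannot move the log2 change in control cells, so such tallies overstate the variety of the fits.

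**Figure D3:**
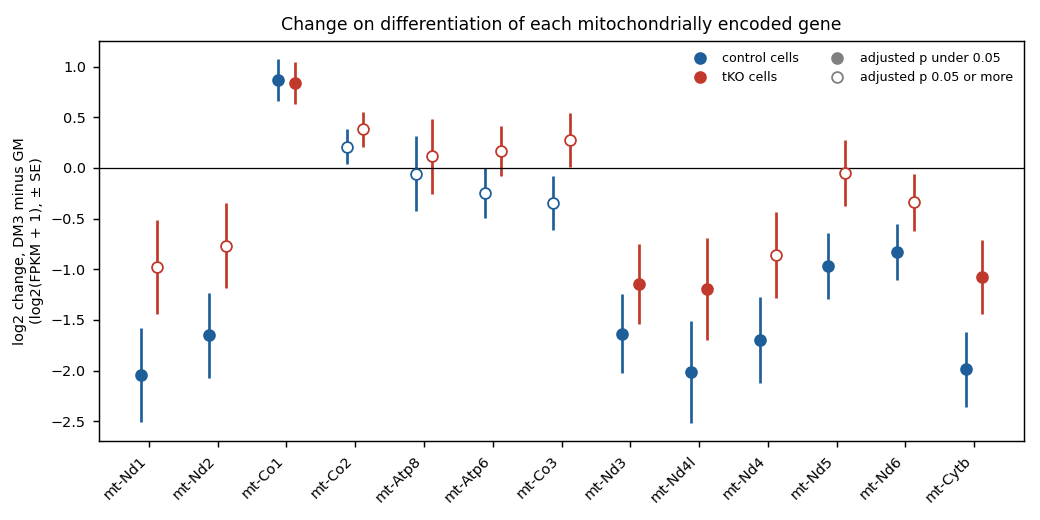
Log2 change from GM to DM3 of the 13 genes, in genome order, in control cells (blue) and tKO cells (red), on the log2(FPKM + 1) scale with standard errors from limma. Filled points have an adjusted p under 0.05. In control cells 8 genes lie between -2.04 and -0.83 and mt-Co1 at 0.87, and in tKO cells 12 of the 13 points lie above those of control cells.

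The balance among the messages as counted therefore differed between stages. The levels of mt-Co2, mt-Atp6, mt-Co3, mt-Nd3 and mt-Nd4l are uncertain because of their nuclear copies, so shares among the 13 genes are too. In GM mt-Co1 made up 31.9% to 36.7% of the fragments from the 13 genes, and in DM3 45.8% to 78.1%. The ratio of mt-Co1 to mt-Nd1, both in FPKM, was 0.956 to 1.21 in the 8 GM libraries. It was 10.6, 10.3, 9.23 and 3.93 in control DM3 and 6.54, 1.87, 7.38 and 2.66 in tKO DM3. Every DM3 library was above every GM library in this ratio, and the lowest DM3 values were those of culture 2, other than in control line 1.

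The 13 genes together took 1.91% to 2.56% of all fragments in the control libraries of GM, 1.98% to 2.48% in the tKO libraries of GM and 1.57% to 2.32% in control DM3. Fragments placed in the nuclear copies, or left uncounted for matching both, are not in these shares. In tKO DM3 the share was 1.20%, 3.31%, 2.32% and 2.97%, the widest range of the 4 groups. The 95% Wilson interval of a single share was narrow, for example 3.31% to 3.32% for the highest library, and covers only counting error: without molecular identifiers, several fragments can come from 1 molecule. Without mt-Co1 the share was 1.29% to 1.62% in GM, 0.366%, 0.350%, 0.431% and 0.884% in control DM3, and 0.410%, 1.80%, 0.610% and 1.39% in tKO DM3. Culture 2 of both clones thus stood within or above the GM range on this measure, and control line 2, culture 2 in between.

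**Figure D4:**
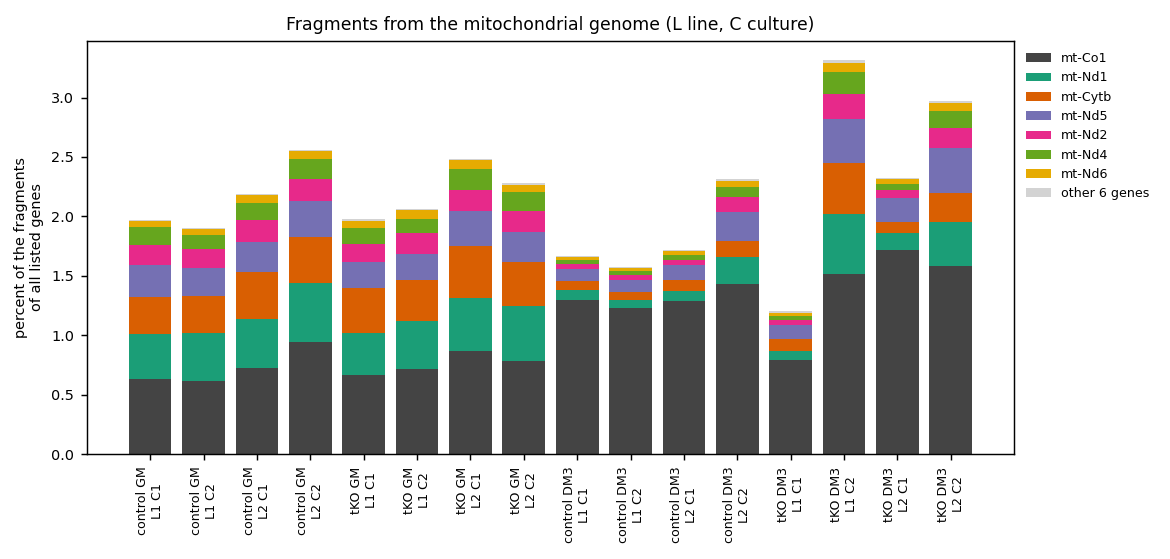
Percent of the fragments of all listed genes that came from the 13 genes in each of the 16 libraries (bars from 0), split by gene, for line or clone (L) and culture (C). mt-Co1 takes 31.9% to 36.7% of each GM bar and 45.8% to 78.1% of each DM3 bar, and the tallest bar, at 3.31%, is tKO DM3 clone 1, culture 2.

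In tKO cells differentiation gave fewer calls. Of the 13 genes 3 fell (mt-Nd3, mt-Cytb and mt-Nd4l), where 36% of all genes tested fell, and mt-Co1 rose, where 24.9% rose (limma, adjusted p under 0.05). The median change was -0.34 against -0.12 over all genes tested, and the GM and DM3 groups overlapped for all 13, where 19.3% of all genes tested were higher and 29.8% lower without overlap. With gene and copy summed, mt-Cytb was the only gene lower, and mt-Co1 and mt-Co2 were higher. mt-Nd4l was at the threshold (limma adjusted p = 0.0496) and passed in 13 of 34 alternatives, with an adjusted p of 0.0502 by voom and 0.0723 with median-of-ratios scaling. mt-Cytb passed in 30 and mt-Nd3 in 29, while mt-Cytb did not pass when the fit held just the 8 tKO libraries (limma adjusted p = 0.0567).

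mt-Cytb had 890.5, 3733, 838.2 and 2173 FPKM in tKO DM3, a log2 change from GM of -1.08 (SE 0.37; limma adjusted p = 0.0182). Both culture 1 libraries were below every GM library, and clone 1, culture 2 was as high as the GM libraries. mt-Nd1 had 785.2, 5253, 1504 and 3848 FPKM, with a change of -0.98 that did not pass (limma adjusted p = 0.0777). Of 34 alternatives 5 called it, among them line averages as units (limma adjusted p = 0.0184). The mean in DM3 was 0.754 times that in GM in clone 1 and 0.562 times in clone 2, with both culture 1 libraries below every GM library.

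mt-Co1 had 5136, 9822, 11101 and 10242 FPKM in tKO DM3 and rose from 4893 ± 577 to 9075 ± 2680 (SD, n = 4), a log2 change of 0.84 (SE 0.21; limma adjusted p = 0.00237). Clone 1, culture 1 was within the range of the GM libraries, and the other 3 were above it. mt-Nd5 and mt-Nd6 changed by -0.05 and -0.34 (limma adjusted p = 0.897 and 0.306), and mt-Nd5 changed sign in 6 alternatives. mt-Co2, mt-Co3, mt-Atp6 and mt-Atp8 changed by 0.38, 0.27, 0.17 and 0.11 and did not pass (limma adjusted p = 0.0674, 0.395, 0.578 and 0.806).

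Single libraries decided the number of calls in tKO cells. Without clone 1, culture 1 or without clone 2, culture 1 in DM3 no gene was lower, and without clone 1, culture 2 or clone 2, culture 2 the number lower was 6 and 5. Without clone 2 altogether neither mt-Co1 nor any other gene passed. The test of the difference between genotypes in the change itself called 0 of the 13 genes, where 0.254% of all genes tested passed (limma interaction, adjusted p under 0.05). The interaction ran from -0.03 (mt-Co1) to 1.06 (mt-Nd1) with a median of 0.62 against 0.03 over all genes, 0 of 13 had an unadjusted p under 0.05, where 10.8% of all genes had, and voom called 0. mt-Nd1, with an interaction of 1.06 and a standard error of 0.65 (limma adjusted p = 0.578), shows how wide the error was.

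Between tKO and control myotubes, all 13 differences were positive and none passed (limma, adjusted p under 0.05), where 2.02% of all genes tested were higher in tKO cells. They ran from 0.04 (mt-Co1) to 1.07 (mt-Nd4l) on the log2 scale, with a median of 0.79 against 0.01 over all genes tested. At an unadjusted p under 0.05 there were 7 of 13, where 16.8% of all genes were, and voom called 0. The groups overlapped for all 13 genes, where 4.22% of all genes tested were higher and 4.3% lower without overlap. mt-Cytb averaged 1909 ± 1364 FPKM in tKO DM3 and 799.2 ± 287 in control DM3 (SD, n = 4), a difference of 1.04 (SE 0.37; limma adjusted p = 0.15), and mt-Nd1 averaged 2848 ± 2070 against 1206 ± 770 FPKM, a difference of 1.05 (SE 0.46; limma adjusted p = 0.262). mt-Co3 had the smallest adjusted p, 0.127, for a difference of 0.79, with 62.0, 65.6, 28.2 and 62.0 FPKM in tKO DM3 and 20.1, 25.7, 28.1 and 51.7 in control DM3. mt-Co1 differed by 0.04 (limma adjusted p = 0.952). The fit shares its spread with the GM libraries, which lay closer together. The SD of log2(FPKM + 1) for mt-Nd1 was 0.77 in control DM3 and 1.26 in tKO DM3, but 0.18 and 0.16 in GM. The standard errors of mt-Nd1 and mt-Cytb above thus understate the spread among the DM3 libraries, and the unadjusted count rests on the same shared spread.

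The libraries were also set side by side by culture number, with 2 a group and without a test of the contrast between numbers. In culture 2 both clones were above both control lines for 11 of 13 genes, where 34.5% of all genes tested were, and in culture 1 for 3 of 13, where 16% were. Leaving out 1 library gave 0 to 4 calls: 4 without tKO clone 1, culture 1 (mt-Nd1, mt-Nd5, mt-Nd6 and mt-Cytb), 2 without tKO clone 2, culture 1 (mt-Co3 and mt-Cytb) and 2 without control line 2, culture 2 (mt-Atp6 and mt-Co3). Without clone 2 altogether mt-Co3 passed.

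The culture number itself went with a difference among the DM3 libraries. With group in the model, 7 of the 13 genes were higher in culture 2 than in culture 1, where 7.71% of all genes tested were (limma, adjusted p under 0.05), and the 7 were all the complex I genes. The changes were 1.36 for mt-Nd1, 1.27 for mt-Nd2, 1.18 for mt-Nd3, 1.25 for mt-Nd4, 1.51 for mt-Nd4l, 0.90 for mt-Nd5 and 0.78 for mt-Nd6 (limma adjusted p between 0.0199 and 0.0379). mt-Cytb was higher by 0.92 and did not pass (limma adjusted p = 0.0664), and mt-Co1 differed by 0.22 (limma adjusted p = 0.511). In GM 0 of 13 passed between cultures, where 2.1% of all genes did, with 0 at an unadjusted p under 0.05, where 16.2% of all genes were, and 0 by voom.

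The 7 genes were higher in culture 2 in both clones and in control line 2, and in control line 1 the ratio of culture 2 to culture 1 was 0.890 to 3.12, above 1 for 4 of them. mt-Nd3 and mt-Nd4l were at 2.07 or more times their culture 1 level in every line, from 8 to 146 fragments per DM3 library. mt-Nd1 in culture 2 was 6.69 times its culture 1 level in tKO clone 1, 2.56 times in clone 2, 2.61 times in control line 2 and 0.974 times in control line 1. mt-Cytb gave 4.19, 2.59, 1.48 and 0.804 in the same order of lines. mt-Co1 gave 1.91, 0.923, 1.11 and 0.942. For mt-Nd1 and mt-Cytb both clones and control line 2 had more in culture 2 and control line 1 had slightly less, and for mt-Co1 only clone 1 moved far, from a low culture 1 library. Without tKO clone 1, culture 2 or without control line 2, culture 2 in DM3 no gene passed between cultures. Without tKO clone 2, culture 2 only mt-Nd3 did, without tKO clone 2, culture 1 3 genes did, and without control line 1, culture 1 4 did.

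The summed level of muscle markers was lower in culture 2 of both clones, a sum carried by a few abundant genes such as Acta1 (mean 404.4 FPKM in tKO DM3) and Mylpf (297.1). Of the 12 markers, 11 were tested between cultures in DM3 and 2 (Ckm and Tmem8c) were lower in culture 2, where 2.55% of all genes tested were. The 12 summed to 1541, 1697, 1230 and 1196 FPKM in control DM3 and to 1729, 584.0, 1561 and 587.5 FPKM in tKO DM3. Culture 2 of both clones thus had the lowest sums of the 8 DM3 libraries and the highest levels of mt-Nd1 and mt-Cytb, as the plot by culture number shows. In control line 2, where mt-Nd1 was 2.61 times higher in culture 2, the sums of the 2 cultures were close, at 1230 and 1196 FPKM. The macrophage markers summed to 2.04, 5.17, 2.46 and 3.83 FPKM in control DM3. For tKO DM3 the sums were 6.78, 9.46, 2.15 and 5.49 FPKM. These sums came mostly from Lyz2 and Cd68, while Adgre1 reached no more than 0.0198 FPKM. Lyz2 averaged 3.26 FPKM among the knockout myotubes against 1.17 among the controls, and Cd68 2.63 against 2.15. Of the 5 markers, 2 were tested between genotypes in DM3 and 0 passed (limma, adjusted p under 0.05). The part of these marker differences in the result was not tested.

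**Figure D5:**
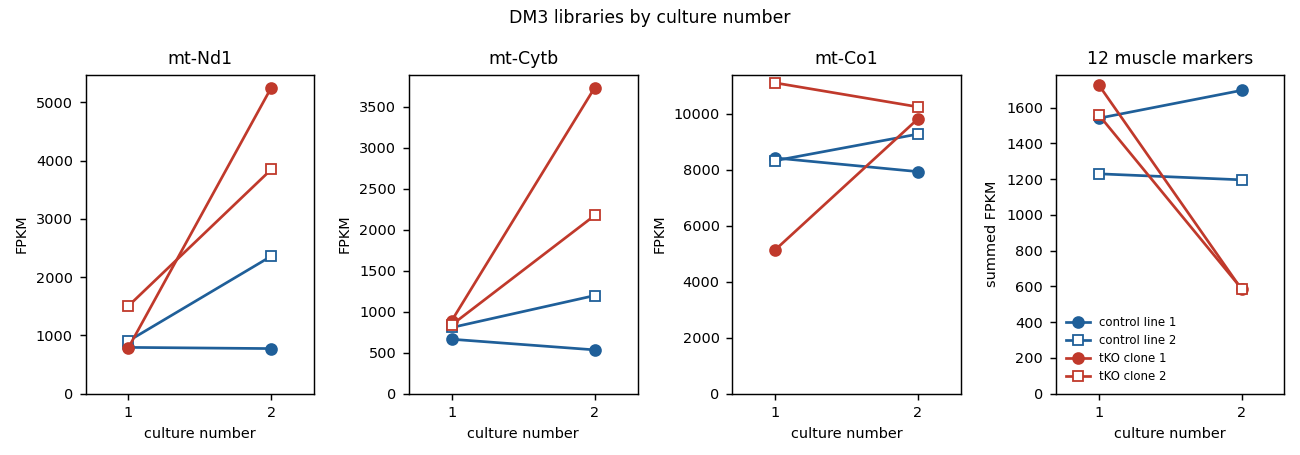
FPKM of mt-Nd1, mt-Cytb and mt-Co1 and the summed FPKM of 12 muscle markers in the 8 DM3 libraries, by culture number (linear axes from 0), with a line joining the 2 cultures of each cell line. mt-Nd1 rises to 5253 and 3848 FPKM in culture 2 of the clones while their muscle sums drop to 584.0 and 587.5 FPKM, and control line 1 is flat in mt-Nd1.

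None of the 13 genes passed between lines of 1 genotype. Between the tKO clones, with stage in the model, 0 passed where 1.05% of all genes tested did. Only mt-Atp8 had an unadjusted p under 0.05, where 17% of all genes had, at -0.86 in clone 2 (limma adjusted p = 0.0538), a gene with 4 to 26 fragments per library, and voom called 0. Without tKO DM3 clone 1, culture 2 it passed, at -0.97. Between the control lines all 13 were higher in line 2, by 0.25 to 0.91, and 0 passed where 0% of all genes tested did. At an unadjusted p under 0.05 there were 4 of 13, where 0.879% of all genes were, and voom called 0.

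The nuclear genes that run mitochondrial gene expression were set beside these changes, from lists of the transcription machinery (11 genes), of RNA processing (24), of RNA stability (6), of DNA maintenance (16) and of translation factors (16, of which 15 were tested). In control cells the numbers lower and higher on differentiation were 7 and 1, 12 and 4, 5 and 0, 9 and 3, and 6 and 2 in that order, where 38.3% and 23.2% of all genes tested changed. The list medians were -0.47, -0.41, -0.58, -0.40 and -0.09 on the log2 scale against -0.15 over all genes. In tKO cells the numbers were 8 and 1, 15 and 3, 5 and 0, 8 and 2, and 6 and 2, with medians of -0.41, -0.77, -0.65, -0.29 and -0.21 against -0.12.

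Polrmt, the RNA polymerase of mitochondria, fell by 0.57 in control cells and by 0.35 in the knockout (limma adjusted p = 0.000105 and 0.00581). Tfam, which packages the DNA and opens its promoters, fell by 0.80 and 0.89 (limma adjusted p = 9.13e-05 and 2.91e-05), from 12.3 ± 0.727 to 6.68 ± 1.06 FPKM in control cells (SD, n = 4). Tfb2m, the initiation factor, fell by 0.67 and 1.14 (limma adjusted p = 0.0049 and 5.58e-05). By limma the 3 factors that start transcription were thus lower in DM3 in both genotypes, as were the pair that binds and stabilises mitochondrial messages. Lrpprc fell by 1.30 and 1.17 (limma adjusted p = 2.26e-05 and 6.42e-05), and its partner Slirp by 0.62 and 0.87 (limma adjusted p = 0.00734 and 0.000586). Voom called each of these genes in both genotypes, other than Polrmt, which it called in control cells only.

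The largest falls over the 5 lists in control cells were in Dna2, a nuclease and helicase also active in the nucleus (-1.95), Tbrg4, a FASTK-family regulator of mitochondrial RNA (-1.72), and Ptcd3, a protein of the mitochondrial ribosome (-1.32). In tKO cells they were in Dna2 (-2.10), Tbrg4 (-1.95) and Fastkd2, another FASTK-family protein (-1.60). The largest rises in control cells were in Cox14, a factor for making the mt-Co1 protein (1.70), Oxa1l, the inner-membrane insertase (0.62), and Slc25a33, a pyrimidine nucleotide carrier (0.61). In tKO cells they were in Cox14 (1.25), Dguok, a deoxyguanosine kinase (0.45), and Primpol, a primase-polymerase (0.45). Cox14 stood at 53.5 ± 5.28 FPKM in control GM and 178.3 ± 36.1 in control DM3 (SD, n = 4). Ppargc1a, a coactivator of mitochondrial biogenesis, changed by 0.62 in control cells (limma adjusted p = 0.0817) and rose by 0.71 in tKO cells (limma adjusted p = 0.0489), at a mean of no more than 1.97 FPKM in any group. Voom called it on differentiation in both genotypes, and also between the tKO clones.

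Most nuclear subunits of the same complexes that passed were higher in DM3. In control cells 22 of 37 nuclear complex I genes were higher in DM3 and 2 lower, beside 7 of 7 mitochondrial ones lower. Of those 7, mt-Nd3 and mt-Nd4l have uncertain levels, and without control line 1 none passed (limma adjusted p = 0.0692 to 0.298). The nuclear counts were not recomputed without that line. For complex III it was 6 of 9 higher and 0 lower, for complex IV 12 of 14 higher and 0 lower, and for complex V 12 of 16 higher and 0 lower (limma, adjusted p under 0.05). In tKO cells 12 of 37, 6 of 9, 13 of 14 and 8 of 16 were higher and 3, 0, 0 and 1 lower. Over all genes tested 23.2% were higher and 38.3% lower in control cells, and 24.9% and 36% in tKO cells. The medians of the 4 lists in control cells were 0.39, 0.77, 1.12 and 0.50 on the log2 scale, where mt-Cytb changed by -1.99 and mt-Co1 by 0.87.

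Genotype calls were few in these lists. With a list of 5 biogenesis factors added, the 10 nuclear lists held 153 tested genes. In GM 0 of them passed between tKO and control cells with limma or with voom, and 19 had an unadjusted p under 0.05, 17.5% being the share over all genes. In DM3, where 3.38% of all genes tested passed, limma called only Tk2, the mitochondrial thymidine kinase, which was higher in tKO cells, at 6.81 ± 0.556 against 5.04 ± 0.368 FPKM (SD, n = 4), a difference of 0.37 (limma adjusted p = 0.0462), and voom called 0. At an unadjusted p under 0.05 there were 16, with 16.8% over all genes. Between the cultures in DM3 limma called 8 of the 153, where 10.3% of all genes passed. Tfb2m and Tfam were higher in culture 2 by 0.59 and 0.36 (limma adjusted p = 0.00998 and 0.0292) and Mrpl12, a ribosomal protein that also binds Polrmt, was lower by 0.38 (limma adjusted p = 0.0402), in the same libraries in which the complex I genes were higher. The other 5 (Mrm2, Twnk, Mgme1, Mtfmt and Gabpa) were higher in culture 2 by 0.45 to 0.60. Voom called 14 of the 153, where 10.2% of all genes passed. Among them were Tfb2m, Mrpl12, Mgme1, Mtfmt and Gabpa, but not Tfam, Mrm2 or Twnk. Of 76 nuclear subunits of complexes I, III, IV and V, limma called 0 between these cultures (13 at an unadjusted p under 0.05, where 28.2% of all genes were) and voom 4, where 10.2% of all genes passed.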

How the data were processed

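Poly(A)-enriched RNA from 16 libraries was sequenced on an Illumina HiSeq instrument, per the labels' protocols. The authors deposited 1 table of FPKM values, with a column per library and no pooling of replicates. The submitters' processing notes name STAR, DESeq and mm10, with no role, and the treatment of strand and of multiply matching fragments is not given in the sources used here. FPKM times gene length gave whole multiples of 1 step per library (largest deviation 0.000139 of a fragment), so fragment numbers were recovered and used for shares and for voom. Groups came from the sample titles.

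The 11832 of 35275 genes that averaged 0.5 FPKM or more were tested on log2(FPKM + 1) with limma 3.58.1 in R 4.3.3: group means over 16 libraries, empirical Bayes moderation with trend and robust settings, Benjamini-Hochberg adjustment over all tested genes, and a call at an adjusted p under 0.05. A log2(value + 1) change understates that of low genes. Line comparisons used the 8 libraries of a genotype with stage as covariate, and culture comparisons all 16 with group. Each of these fits shared a common spread across GM and DM3 libraries. The procedure was tested on simulated data, where it recovered 93% of 2-fold and 100% of 4-fold changes, with 5.39% of calls false. The simulation gave every gene and group the same dispersion and no line or culture effect. It thus does not show how the test performs on values as spread as those of the 13 genes in DM3. Sequences and copies came from GENCODE mouse release M21 transcripts, matched by Ensembl identifier, with ungapped alignment in Python 3.11.15. Named nuclear genes were Polrmt, Tfam, Tfb2m, Lrpprc, Slirp, Ppargc1a and up to 3 called genes per direction with the largest change over 5 lists. Tk2, Mrpl12, Ckm and Tmem8c were named after their values were seen. The members and lists were chosen with earlier results of these data known. Mrm2, Twnk, Mgme1, Mtfmt and Gabpa complete a count. Alternatives covered the pseudocount, filter, scaling, voom, moderation, blocks, line handling and left-out libraries, and, chosen after seeing the data, fragments of gene and chromosome 1 copy summed. Depth was 22642563 to 56585952 fragments per library.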

Additional observations from a re-analysis of the deposited data

Results flagged for a closer look

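For each gene, and for the summed share of fragments, in each group of 4 libraries the gap between an extreme library and its nearest neighbour was set against the group's range (Dixon's test at its 95% level). Of 56 sets of values (52 of single genes and 4 of the share) 5 exceeded it. Chance gives about 1 in 20 for independent sets, and these share libraries. In 4 of the 5 the library was control DM3 line 2, culture 2. It had 2359 FPKM of mt-Nd1 against 772.1 to 902.1 in the other 3 control DM3 libraries, 1183 FPKM of mt-Nd2 against 370.4 to 462.6, 641.2 FPKM of mt-Nd4 against 238.2 to 267.5, and 1327 FPKM of mt-Nd5 against 578.6 to 678.4. Without this library mt-Atp6 and mt-Co3 were also lower in control DM3 than in GM (log2 change -0.51 and -0.61, limma adjusted p = 0.0486 and 0.036, from 0.396 and 0.266 with it), and no gene passed between cultures in DM3. The fifth was tKO DM3 clone 2, culture 1, which had 28.2 FPKM of mt-Co3 against 62.0 to 65.6 in the other 3.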

How the results depend on the processing

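Each count and each named change was recomputed under up to 34 alternatives. For a contrast of 2 groups some of them left out libraries or lines outside the compared groups. These leave the log2 change as it was and alter only its error, so the totals below include near repeats of the main fit. Of 498 recomputed counts and shares 462 stayed within 1.5 times or 1 SD of the reported value, and of 1543 recomputed changes of single genes 1403 kept direction and call, 77 lost the call, 35 gained it and 28 changed sign.

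Voom and median-of-ratios scaling each gave 2 genes higher on differentiation in either genotype (mt-Co1 and mt-Co2), and in tKO cells 2 lower, without mt-Nd4l. Without control line 1 the control counts were 0 higher and 1 lower, and without tKO clone 2 the tKO counts were 0 and 0 and the DM3 genotype count 1. Without clone 1, 1 gene was lower in tKO cells, and with line averages as units 6. With gene and copy summed, an alternative chosen after seeing the data, the tKO counts were 2 higher and 1 lower. Without trend or robust moderation 1 gene differed between clones, and without a filter 3 differed between cultures in DM3. As a share of TPM the 13 genes took 4.22% in control GM, 4.17% in tKO GM, 3.01% in control DM3 and 4.40% in tKO DM3. Leaving out single libraries gave 0 to 4 genes higher in tKO DM3, 1 to 2 higher and 0 to 6 lower in tKO differentiation, 0 to 1 lower in clone 2 and 0 to 9 higher in culture 2 of DM3. The cause was not tested.

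Same-numbered cultures correlated between genotypes within a stage (r = 0.54 in GM and 0.34 in DM3, across genes) but at -0.11 to 0.10 between stages. The number was thus not taken to pair GM with DM3 libraries. Within a stage it could serve as a block, which the main fit left out because the labels state no pairing. With a replicate block for the culture number, 0 genes passed between genotypes at either stage, 9 in control and 5 in tKO differentiation, where mt-Nd1 was added (log2 change -0.98, limma adjusted p = 0.0384). With that replicate block set within each stage 9 passed in control cells, and in tKO cells 6 were lower, with mt-Nd1, mt-Nd2 and mt-Nd4 added (limma adjusted p = 0.0182, 0.0353 and 0.0235). Between genotypes the block within each stage also gave 0 calls at either stage. In DM3 it put 10 of the 13 genes at an unadjusted p under 0.05 (limma), against 7 in the main fit. The share over all genes in that fit is not given here.

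Sign changes touched only values that had not passed. In tKO against control DM3, mt-Co1 became -0.014 without control line 1 and -0.25 without clone 2, with -0.078 to 0.29 over left-out libraries, and mt-Atp8 became -0.065 without control line 1 and -0.15 without clone 1. For control differentiation mt-Atp8 became 0.058 with median-of-ratios scaling, 0.17 with voom and 0.38 without control line 1. For tKO differentiation mt-Co3 was -0.044 without clone 1. There mt-Nd5 was 0.11 with median-of-ratios scaling, 0.084 with voom and 8.27e-05 without clone 1. Between cultures in DM3 mt-Co2 was -0.020 with median-of-ratios scaling and -0.011 with voom. Over left-out libraries mt-Atp8 ran from -0.30 to 0.25 in control and -0.12 to 0.28 in tKO differentiation, mt-Nd5 from -0.28 to 0.30 in the latter, and between cultures in DM3 mt-Co1 ran from -0.038 to 0.41, mt-Co2 from -0.039 to 0.28 and mt-Atp8 from -0.081 to 0.49. The share restricted to protein-coding genes is identical, as all 13 are protein coding, and a fit of only the compared libraries could not be made for the interaction. At 4 to 26 fragments per library, depth limits what mt-Atp8 can show.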

Other observations

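Ratios between messages within a library give further values. mt-Nd6 and mt-Nd5, which lie on opposite strands and overlap at their ends, had a ratio of 0.695 to 1.12 in GM and 0.664 to 0.924 in DM3 (FPKM of mt-Nd6 over mt-Nd5). The use of strand in counting is not stated, so the mt-Nd6 value could include RNA of the plus strand. mt-Nd2 over mt-Nd1 was 0.350 to 0.409 in GM and 0.397 to 0.514 in DM3. mt-Nd5 over mt-Nd1 was 0.286 to 0.379 in GM and 0.385 to 0.787 in DM3, with every DM3 library above every GM library. Summed with their chromosome 1 copies, mt-Nd3 had 110.2 ± 14.8 FPKM in control GM and 36.4 ± 30.5 in control DM3, and mt-Nd4l had 35.5 ± 6.17 and 9.86 ± 8.46 (SD, n = 4), with log2 changes of -1.85 and -2.01 (limma adjusted p = 0.00399 and 0.00238).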
